A study of Arabidopsis thaliana with 4 samples.

Results

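The 8 genes described here encode the proteins of the major light-harvesting trimer of photosystem II, LHCII, in Arabidopsis: 5 LHCB1 genes and 3 LHCB2 genes. They were chosen by their locus identifiers and give 9 of the 33539 entries of the gene table, because LHCB1.1 is listed in 2 entries. RNA came from pooled whole seedlings, 5 days old, with 1 library for each of 4 conditions. The wbc19 mutant line, SALK_107731, was grown with 50 mg/l kanamycin or without it, and the control line, SALK_064816C, was grown in the same pair of conditions. Both lines carry a T-DNA with the NPTII kanamycin resistance gene, each genotype is represented by 1 line, and the control insertion lies near TRANSPARENT TESTA 4 and disrupts no gene. The mutant insertion is in WBC19, which encodes an ABC transporter whose loss makes seedlings sensitive to kanamycin. The design sets seedlings with the antibiotic beside seedlings without it in each line, and the lines beside each other in each medium.

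LHCII is the most abundant membrane protein complex of green plant tissue. It binds chlorophyll a and chlorophyll b in the thylakoid membrane and passes absorbed light energy to the reaction centre of photosystem II. LHCB1 and LHCB2 proteins, with LHCB3, assemble as trimers. LHCB2 is a main target of the STN7 kinase, whose phosphorylation moves part of the LHCII pool to photosystem I. The genes are nuclear, their transcription is driven by light and by the circadian clock, and the proteins are imported into the chloroplast.

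Transcript levels are given as FPKM, fragment numbers divided by transcript length and by library depth, so that genes of different length can be compared. With 1 library in each condition there is no spread between plants, and no difference has a test or a replicate check. The intervals in brackets are 95% Poisson intervals of read numbers estimated from the values. They cover counting error only, since PCR copies without molecular identifiers are not independent molecules. By this estimate, 1 read per kilobase of transcript was worth between 0.653 and 1.26 FPKM, and a lower value implies more reads. Most reads were implied for control + kanamycin and wbc19 mutant, which nevertheless had the fewest entries above 0, 11090 and 9013. The numbers were 13217 in wbc19 mutant + kanamycin and 15072 in control. The estimate rests on 46 values in control + kanamycin and 32 in wbc19 mutant, against 246 in wbc19 mutant + kanamycin and 363 in control. Intervals of the former libraries are thus the least certain. Fewer cells of a type and less RNA per cell cannot be told apart in such samples.

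WBC19 had 2.3 FPKM in the wbc19 mutant + kanamycin library and 3.00 FPKM in the wbc19 mutant library, against 0 FPKM in both libraries labelled control. By the read estimate, about 5 reads in wbc19 mutant + kanamycin and 10 in wbc19 mutant stood behind these values, and reads on either side of an insertion count alike, so they do not show an intact transcript. An order with the mutant above the control is the reverse of what a lower WBC19 transcript level in the mutant would give, and its cause was not tested. Each library is therefore named here by its label only, and every direction between lines rests on that label. Of 9 markers of green tissue, 8 were above 0 in every library, while FBA2, an abundant chloroplast aldolase, was listed at 0 in all 4. Of 14 root markers, the number at 0 FPKM was 5 in wbc19 mutant + kanamycin and 10 in wbc19 mutant, against 7 in control + kanamycin and 3 in control. The libraries came in the same order for all entries listed at 0 although they averaged 5 FPKM or more over the libraries. These numbered 1075 in wbc19 mutant + kanamycin and 2572 in wbc19 mutant, against 1718 in control + kanamycin and 635 in control. The zeros of the markers are therefore not read as a difference in tissue. The summed FPKM of these root markers was 579 in wbc19 mutant + kanamycin and 1334 in wbc19 mutant, against 687 in control + kanamycin and 989 in control. PYK10, a root beta-glucosidase, made up most of each sum, and the other 13 markers summed to 82.7 FPKM in wbc19 mutant + kanamycin and 35.1 FPKM in wbc19 mutant, against 81.8 FPKM in control + kanamycin and 78.2 FPKM in control. The wbc19 mutant library was thus the highest with PYK10 and the lowest without it.

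The LHCB1 genes have no intron. LHCB1.1 (AT1G29920, also CAB2), LHCB1.2 (AT1G29910, CAB3) and LHCB1.3 (AT1G29930, CAB1) form a cluster on chromosome 1, and LHCB1.4 (AT2G34430) and LHCB1.5 (AT2G34420) are neighbours on chromosome 2. LHCB2.1 (AT2G05100) and LHCB2.2 (AT2G05070) lie near each other on chromosome 2 and LHCB2.3 (AT3G27690, which the gene table names LHCB2.4) on chromosome 3, each with 1 intron. The coding sequences are between 798 and 801 bases in LHCB2 and between 798 and 804 bases in LHCB1. In RefSeq's TAIR10.1 sequence, LHCB1.1 and LHCB1.2 share 95.6% of aligned coding bases, LHCB1.1 and LHCB1.3 96.1%, LHCB1.4 and LHCB1.5 91.4%, and LHCB2.1 and LHCB2.2 96.6%. LHCB2.3 stands further off, with 85.5% identity to LHCB2.1 and 84.5% to LHCB2.2. Between the families, identity was 73.6% for the nearest pair, LHCB1.3 and LHCB2.1, and 70.1% for LHCB1.4 and LHCB2.3.

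The reads were 36 bases long, so a read can name a single gene only where copies differ within 36 bases. Shown for this reason are the stretches of 72 coding bases with the most differences from LHCB1.3, the most abundant copy, summed over the LHCB1 genes. Capitals mark the bases that differ from LHCB1.3.
LHCB1.1 (chr1:10475629-10475700, minus strand): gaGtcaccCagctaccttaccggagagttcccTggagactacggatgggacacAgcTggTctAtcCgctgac
LHCB1.2 (chr1:10472983-10473054, minus strand): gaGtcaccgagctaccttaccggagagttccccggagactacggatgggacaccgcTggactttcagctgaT
LHCB1.3 (chr1:10478263-10478334, plus strand): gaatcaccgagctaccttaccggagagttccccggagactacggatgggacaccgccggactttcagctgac
LHCB1.4 (chr2:14525007-14525078, plus strand): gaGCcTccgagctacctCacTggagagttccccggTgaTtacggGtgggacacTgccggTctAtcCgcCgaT
LHCB1.5 (chr2:14523256-14523327, minus strand): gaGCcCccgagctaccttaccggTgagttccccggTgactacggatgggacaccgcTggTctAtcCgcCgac

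In these stretches LHCB1.2 differs from LHCB1.3 at 3 of 72 bases, LHCB1.1 at 8, LHCB1.5 at 10 and LHCB1.4 at 14. The stretches of the LHCB2 genes follow, chosen by the same rule, with capitals at the bases that differ from LHCB2.1. They lie at another place, coding bases 19 to 90 in LHCB2.1 against 193 to 264 in LHCB1.3.
LHCB2.1 (chr2:1824242-1824313, minus strand): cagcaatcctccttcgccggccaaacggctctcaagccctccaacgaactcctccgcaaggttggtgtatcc
LHCB2.2 (chr2:1800240-1800311, minus strand): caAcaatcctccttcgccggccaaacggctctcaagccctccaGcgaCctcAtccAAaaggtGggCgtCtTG
LHCB2.3 (chr3:10256020-10256091, plus strand): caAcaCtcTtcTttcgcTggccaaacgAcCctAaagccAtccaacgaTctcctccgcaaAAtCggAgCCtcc

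LHCB2.2 differs from LHCB2.1 at 11 of these bases and LHCB2.3 at 16. At the other extreme stand the longest runs without any difference. The longest run common to all 5 LHCB1 coding sequences is 35 bases, 1 base shorter than a read. The longest common to LHCB1.1, LHCB1.2 and LHCB1.3 is 62 bases, and the longest common to LHCB2.1 and LHCB2.2 is 152 bases. No read that lies within either of these longer runs can tell the genes that share it apart.
Common to all 5 LHCB1 (chr1:10475198-10475232 in LHCB1.1, minus strand): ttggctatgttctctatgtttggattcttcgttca
Common to LHCB2.1 and LHCB2.2 (chr2:1823453-1823604 in LHCB2.1, minus strand): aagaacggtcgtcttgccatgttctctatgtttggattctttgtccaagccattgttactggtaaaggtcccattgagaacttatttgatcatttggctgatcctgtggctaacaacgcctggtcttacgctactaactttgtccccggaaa

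Every 36-base window of each transcript was looked up on both strands of the genome. Within the coding sequence, the windows found at 1 gene only made up 55.1% in LHCB1.1, 68.7% in LHCB1.2, 58.9% in LHCB1.3, 65.9% in LHCB1.4 and 66.2% in LHCB1.5. In LHCB2.1 and LHCB2.2 the share was 49%. LHCB2.3 was almost free of shared windows, with 99.6% of its coding windows and 100% of the others found at this gene alone. Outside the coding sequence, at least 96.9% of windows were specific in each gene, and no window was common to an LHCB1 and an LHCB2 gene. The windows counted are exact matches, whereas the authors' alignment allowed up to 2 mismatches. Single values of LHCB1 genes, LHCB2.1 and LHCB2.2 are therefore uncertain, and the family sums are given beside them.

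**Figure D1:**
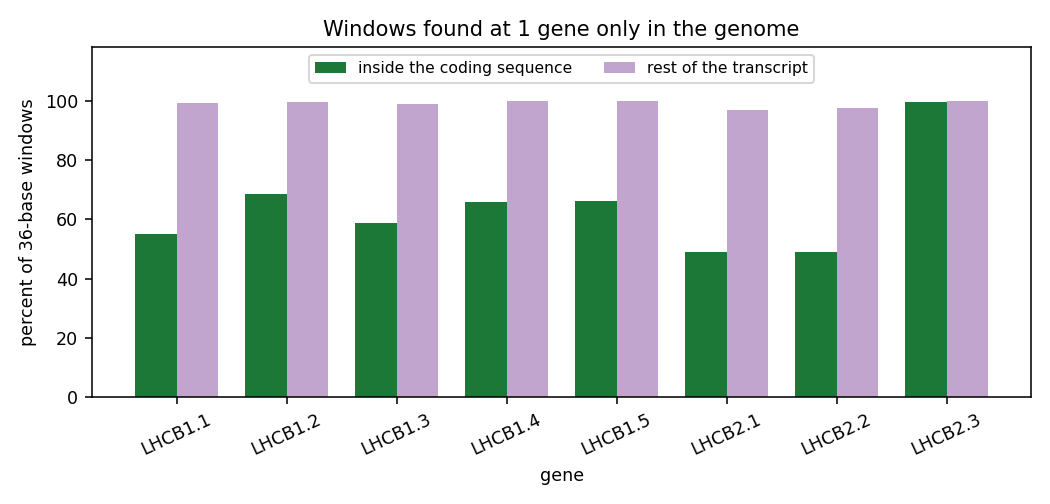
Percent of 36-base windows (vertical axis) found at only 1 gene of the genome, for each of the 8 genes, with green bars for windows inside the coding sequence and purple bars for the rest of the transcript. LHCB2.3 is at 99.6% in its coding sequence, while LHCB2.1 and LHCB2.2 are at 49%.

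LHCB1.3 was the most abundant of the 8 genes in every library. It was listed at 4942 FPKM in wbc19 mutant + kanamycin and 4754 FPKM in wbc19 mutant, against 3996 FPKM in control + kanamycin and 3926 FPKM in control. Among protein-coding entries it ranked 3 in all libraries except control, where it ranked 4. The levels in both libraries labelled mutant were above those in both labelled control.

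LHCB1.5 followed in each library, with 2699 FPKM in wbc19 mutant + kanamycin and 2826 FPKM in wbc19 mutant, against 2703 FPKM in control + kanamycin and 1602 FPKM in control. The control library stood below the other 3, which lay close together. The deposited locus of LHCB1.5 also spans its neighbour RWA3, a gene of cell wall acetylation, and RefSeq places an antisense gene over LHCB1.5. Whether the counting used strand is not given in the sources used here, so reads from the antisense gene cannot be told apart from those of LHCB1.5.

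LHCB1.1 had 2306 FPKM in wbc19 mutant + kanamycin and 1968 FPKM in wbc19 mutant, against 1782 FPKM in control + kanamycin and 1511 FPKM in control. In this annotated entry, levels were ordered by line and, within each line, were higher with kanamycin. Upper-quartile scaling, however, turns the kanamycin difference of the control line to -0.065 on the log2 scale. The table gives 1 locus, spanning LHCB1.1 and LHCB1.2 together, to the annotated entries of both genes and to a second, assembled entry of LHCB1.1. The assembled entry was listed at 0 FPKM in wbc19 mutant + kanamycin and 157 FPKM in wbc19 mutant, against 980 FPKM in control + kanamycin and 123 FPKM in control. The library with the highest value of this entry did not have the highest annotated LHCB1.1 or LHCB1.2 value. The assembled entry was lower with kanamycin in the mutant line and higher with it in the control line. The order given above therefore holds for the annotated entry only, not for LHCB1.1 over both entries.

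LHCB1.2 had 1449 FPKM in wbc19 mutant + kanamycin and 1023 FPKM in wbc19 mutant, against 1158 FPKM in control + kanamycin and 1213 FPKM in control. LHCB1.4 had 1236 FPKM in wbc19 mutant + kanamycin and 861 FPKM in wbc19 mutant, against 862 FPKM in control + kanamycin and 584 FPKM in control. For both genes wbc19 mutant + kanamycin was the highest library, but the lowest was wbc19 mutant for LHCB1.2 and control for LHCB1.4.

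LHCB2.1 was listed at 1057 FPKM in wbc19 mutant + kanamycin and 619 FPKM in wbc19 mutant, against 769 FPKM in control + kanamycin and 677 FPKM in control. LHCB2.2 was listed at 927 FPKM in wbc19 mutant + kanamycin and 573 FPKM in wbc19 mutant, against 529 FPKM in control + kanamycin and 592 FPKM in control. In both genes wbc19 mutant + kanamycin stood above the other 3 libraries, whose values lay between 619 and 769 FPKM for LHCB2.1 and between 529 and 592 FPKM for LHCB2.2.

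LHCB2.3 was the least abundant of the 8 genes in every library and varied most between them. It had 245 FPKM [209 to 285] in wbc19 mutant + kanamycin and 77.7 FPKM [62.6 to 95.4] in wbc19 mutant, against 282 FPKM [254 to 312] in control + kanamycin and 132 FPKM [107 to 162] in control. The estimated reads behind these values were 164 in wbc19 mutant + kanamycin and 91 in wbc19 mutant, against 366 in control + kanamycin and 93 in control. The intervals of both libraries with kanamycin lay above those of both libraries without it. This is also the gene with the fewest windows shared with its relatives.

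The order of the 8 genes was the same in the 3 libraries other than control: LHCB1.3, LHCB1.5, LHCB1.1, LHCB1.2, LHCB1.4, LHCB2.1, LHCB2.2 and LHCB2.3. In control, LHCB1.4 came after LHCB2.1 and LHCB2.2. Neighbours in this order had overlapping intervals for 1 of 7 pairs in each library other than control and for 3 of 7 in control. LHCB2.1 and LHCB2.2 overlapped in every library except control + kanamycin, where LHCB1.4 and LHCB2.1 did. In control, LHCB1.5 and LHCB1.1 as well as LHCB2.2 and LHCB1.4 also overlapped.

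**Figure D2:**
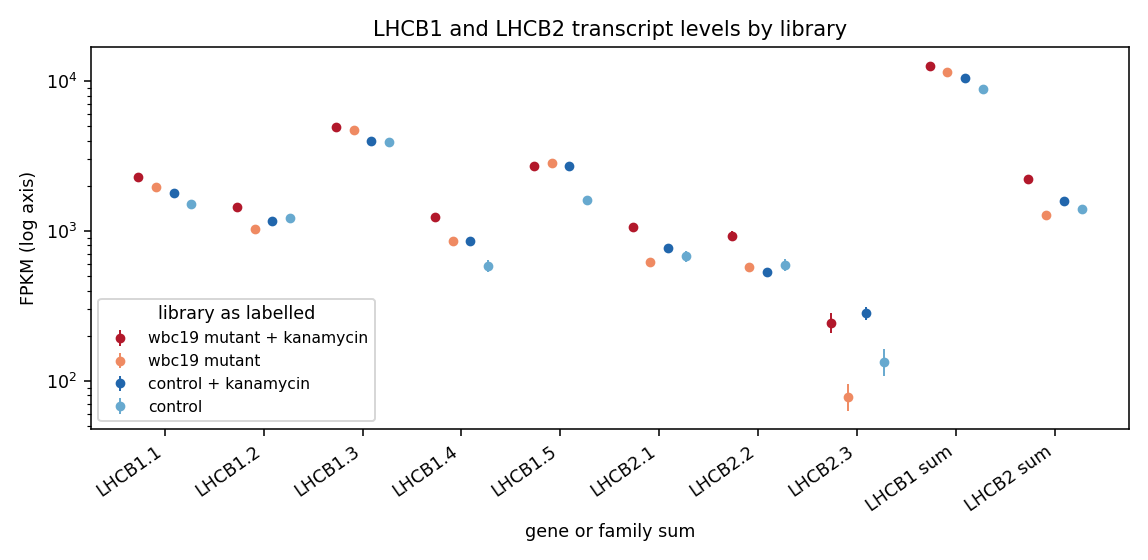
FPKM (log axis) of the 8 genes and the 2 family sums, with 1 point for each library as labelled and vertical lines for the 95% Poisson interval of the estimated reads. LHCB1.3 lies between 3926 and 4942 FPKM and LHCB2.3 between 77.7 and 282 FPKM.

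The LHCB1 sum over the 5 annotated entries was 12632 FPKM in wbc19 mutant + kanamycin and 11433 FPKM in wbc19 mutant, against 10501 FPKM in control + kanamycin and 8835 FPKM in control. The LHCB2 sum was 2228 FPKM in wbc19 mutant + kanamycin and 1269 FPKM in wbc19 mutant, against 1581 FPKM in control + kanamycin and 1402 FPKM in control. Both sums were highest in wbc19 mutant + kanamycin, but the lowest library was control for LHCB1 and wbc19 mutant for LHCB2. LHCB2 thus made up 15.0% of both families in wbc19 mutant + kanamycin and 9.99% in wbc19 mutant, against 13.1% in control + kanamycin and 13.7% in control. These shares are taken within a library and do not depend on how libraries are scaled.

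Within the LHCB1 sum, LHCB1.3 held 39.1% in wbc19 mutant + kanamycin and 41.6% in wbc19 mutant, against 38.1% in control + kanamycin and 44.4% in control. LHCB1.5 held 21.4% in wbc19 mutant + kanamycin and 24.7% in wbc19 mutant, against 25.7% in control + kanamycin and 18.1% in control. LHCB1.1 stayed between 17.0% and 18.3% in all 4 libraries. Within the LHCB2 sum, LHCB2.1 kept between 47.4% and 48.8%. The share of LHCB2.3 was 10.98% in wbc19 mutant + kanamycin and 6.12% in wbc19 mutant, against 17.8% in control + kanamycin and 9.45% in control, so it was higher with kanamycin in both lines.

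**Figure D3:**
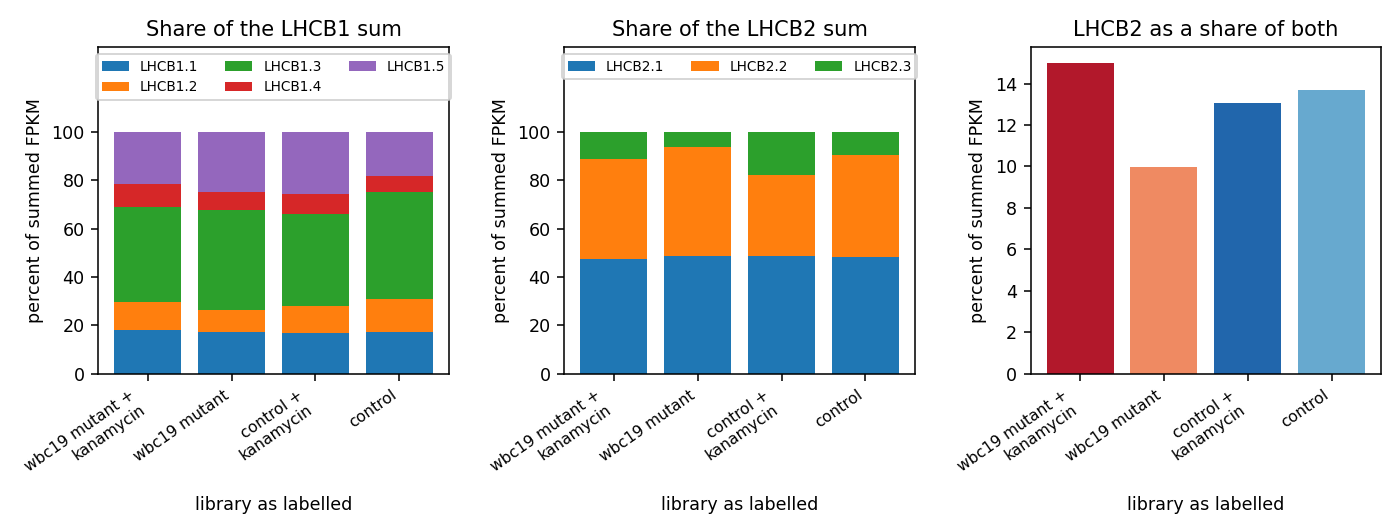
Percent of summed FPKM by library as labelled: each gene's share of the LHCB1 sum (left), of the LHCB2 sum (middle), and LHCB2 as a share of both families (right). LHCB2 is at 9.99% of both in wbc19 mutant and at 15.0% in wbc19 mutant + kanamycin.

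Differences between libraries are log2 differences of FPKM with a pseudocount of 1 added. With kanamycin against without it in the control line, the LHCB1 sum differed by 0.25 [0.21 to 0.29] and the LHCB2 sum by 0.17 [0.07 to 0.28]. With libraries scaled by their upper quartile, which shifts abundant genes by -0.30 here, both turned to lower, at -0.054 for LHCB1 and -0.13 for LHCB2. LHCB2.3 was the only one of the 8 genes at least 2-fold apart, with a log2 difference of 1.09 and an interval [0.76 to 1.44] that reached below 2-fold. The same limit was passed by 57.4% of all 9761 entries that averaged 5 FPKM or more, and by 25.2% of the 781 that averaged 100 FPKM or more. The share fell as the mean rose, and most of the 8 genes were listed far above 100 FPKM in every library, so neither share is matched to their abundance. Nothing particular to the 8 genes is read from the count of 1 in 8 or from the counts in the comparisons below. No gene of the 8 reached 2-fold under upper-quartile scaling. LHCB1.5 at 0.75 and LHCB1.4 at 0.56 came next. LHCB1.1 at 0.24, LHCB2.1 at 0.18 and LHCB1.3 at 0.025 turned to lower under upper-quartile scaling. LHCB1.2 and LHCB2.2 were at -0.066 and -0.16 with intervals that held 0, as did that of LHCB1.3. The median of the 8 genes was 0.21, against -0.0044 for the 9761 entries and 0 for the 781 abundant ones. The 8 green tissue markers above 0 were all lower in the same comparison, with a median of -0.26.

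Between the lines without kanamycin, mutant against control as labelled, the families differed in opposite directions, with 0.37 [0.33 to 0.41] for the LHCB1 sum and -0.14 [-0.25 to -0.03] for the LHCB2 sum. None of the 8 genes was at least 2-fold apart, beside 61% of the 9761 entries and 31.2% of the 781 abundant ones. LHCB1.5 was at 0.82 and LHCB1.4 at 0.56, whereas LHCB1.2 was at -0.24. LHCB2.3 was at -0.76 [-1.20 to -0.34], and LHCB2.1 and LHCB2.2 were at -0.13 and -0.047 with intervals that held 0. The median of the 8 genes was 0.11, against -0.28 for the 9761 entries and -0.014 for the 781 abundant ones, while the 8 measured green tissue markers had a median of -0.13.

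Between the lines with kanamycin, again mutant against control as labelled, both sums were higher, by 0.27 [0.23 to 0.30] for LHCB1 and 0.50 [0.40 to 0.59] for LHCB2. None of the 8 genes was at least 2-fold apart, beside 59.4% of the 9761 entries and 27.7% of the 781 abundant ones. LHCB2.2 was at 0.81, LHCB1.4 at 0.52 and LHCB2.1 at 0.46. LHCB1.5 at -0.0023 and LHCB2.3 at -0.20 had intervals that held 0, and both turned to higher under upper-quartile scaling. The median of the 8 genes was 0.35, against 0 for the 9761 entries and -0.10 for the 781 abundant ones. All 8 measured green tissue markers were higher as well, with a median of 0.19, and their part in the result was not tested.

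With kanamycin against without it in the mutant line as labelled, the LHCB2 sum was higher by 0.81 [0.71 to 0.91] and the LHCB1 sum by 0.14 [0.11 to 0.18]. LHCB2.3 was again the only gene of the 8 at least 2-fold apart, at 1.64 [1.28 to 2.04], beside 62.8% of the 9761 entries and 32% of the 781 abundant ones. LHCB2.1 was at 0.77 and LHCB2.2 at 0.69, and in LHCB1 the nearest were LHCB1.4 at 0.52 and LHCB1.2 at 0.50. LHCB1.3 at 0.056 and LHCB1.5 at -0.066 had intervals that held 0, and LHCB1.5 turned to higher under both scalings. The median of the 8 genes was 0.51, against 0.08 for the 9761 entries, -0.09 for the 781 abundant ones and 0.07 for the 8 measured green tissue markers. These comparisons share libraries in pairs, so their values are not independent of each other.

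**Figure D4:**
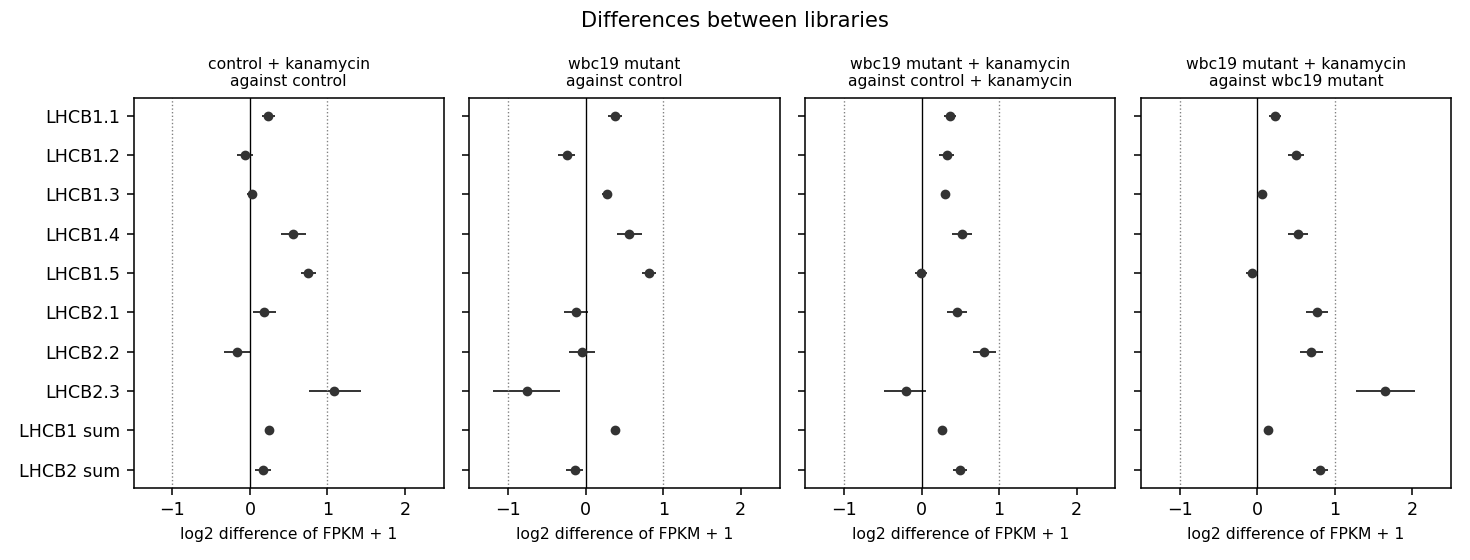
Log2 difference of FPKM + 1 (horizontal axis) for the 8 genes and the 2 family sums in the 4 comparisons, with 95% counting intervals as horizontal lines and dotted lines at a 2-fold difference. LHCB2.3 lies at 1.64 for kanamycin in the wbc19 mutant line and at 1.09 for kanamycin in the control line.

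The list of relatives holds the other light-harvesting proteins and PSBS, a protein of the same family: LHCB3 completes trimers, LHCB4, LHCB5 and LHCB6 link them to the core of photosystem II, LHCA proteins serve photosystem I, and PSBS acts in the dissipation of excess light energy. Of the 14 genes, 1 was at least 2-fold higher and 0 lower with kanamycin in the mutant line, and 1 was higher and 2 lower with kanamycin in the control line. Between the lines, 1 was higher and 1 lower in the mutant with kanamycin, and 1 was higher and 2 lower in the mutant without it. LHCB7 is among those counted as lower in both of these comparisons, although it averaged under the limit of 5 FPKM set for the 9761 entries. It passed the lower limit of 1 FPKM for lists through the control libraries alone. Of the 9761 entries, 35.7% were at least 2-fold higher and 27.1% lower for kanamycin in the mutant line, and 26.6% higher and 30.8% lower for kanamycin in the control line. Between the lines, these shares were 29% higher and 30.4% lower with kanamycin, and 23.9% higher and 37.2% lower without it. The median differences of the 14 genes were 0.23 for kanamycin in the mutant line and 0.34 in the control line, and between the lines 0.13 with kanamycin and 0.20 without it.

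LHCB3 had 1255 FPKM in wbc19 mutant + kanamycin and 1049 FPKM in wbc19 mutant, against 1270 FPKM in control + kanamycin and 612 FPKM in control. The control library stood below the other 3, as it did for LHCB1.5. LHCB6 had 1299 FPKM in wbc19 mutant + kanamycin and 855 FPKM in wbc19 mutant, against 984 FPKM in control + kanamycin and 838 FPKM in control. LHCB7, the rarest of the list, was listed at 0 FPKM in both libraries labelled mutant, against 6.95 FPKM in control + kanamycin and 7.74 FPKM in control.

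**Figure D5:**
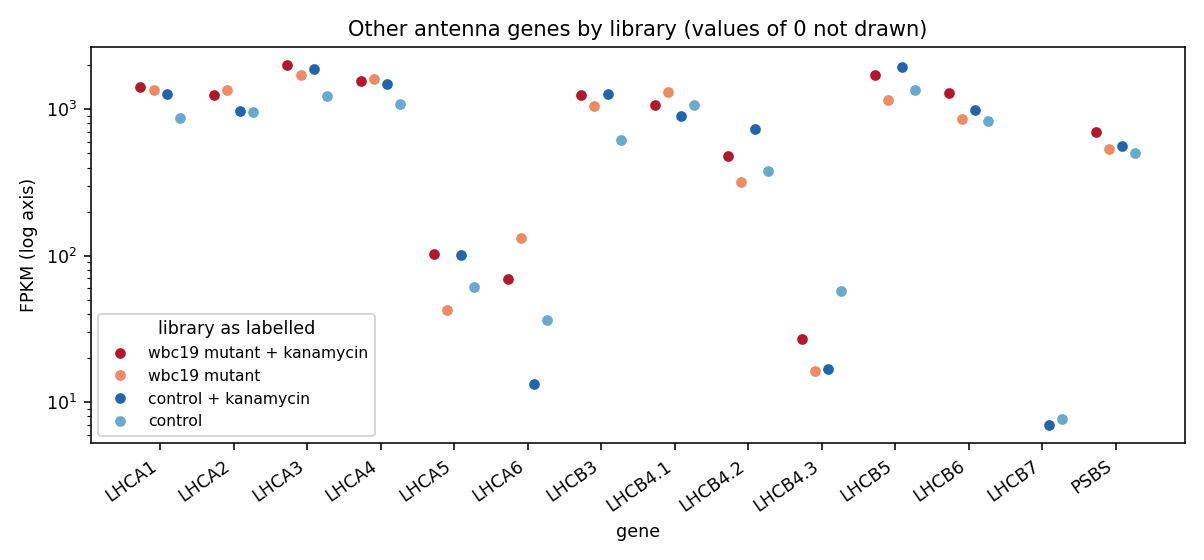
FPKM (log axis) of the 14 other antenna genes, with 1 point for each library as labelled and values of 0 not drawn. LHCB3 lies at 612 FPKM in control and between 1049 and 1270 FPKM in the other libraries.

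Further genes act in bringing LHCII to the membrane. ALB3, the thylakoid insertase for LHCII, had 88.0 FPKM in wbc19 mutant + kanamycin and 284 FPKM in wbc19 mutant, against 266 FPKM in control + kanamycin and 74.7 FPKM in control. The chloroplast signal recognition particle subunit cpSRP54 had 41.3 FPKM in wbc19 mutant + kanamycin and 43.5 FPKM in wbc19 mutant, against 12.3 FPKM in control + kanamycin and 72.4 FPKM in control. Of the 5 genes of import, targeting and insertion, 0 were at least 2-fold higher and 2 lower with kanamycin in the mutant line, and 1 was higher and 2 lower with it in the control line. Between the lines, 3 were higher and 1 lower in the mutant with kanamycin, and 1 was higher and 0 lower without it. Over the 9761 entries, the corresponding shares lay between 23.9% and 35.7% higher and between 27.1% and 37.2% lower, and nothing particular to these few genes is read from their counts.

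CAO, which makes chlorophyll b, had 59.9 FPKM in wbc19 mutant + kanamycin and 67.3 FPKM in wbc19 mutant, against 18.1 FPKM in control + kanamycin and 36.3 FPKM in control. NYC1, a reductase that starts chlorophyll b breakdown, had 20.9 FPKM in wbc19 mutant + kanamycin and 113 FPKM in wbc19 mutant, against 22.3 FPKM in control + kanamycin and 18.8 FPKM in control. Its value in wbc19 mutant stood apart from the other 3. NOL, the partner of NYC1, was between 0.649 and 14.7 FPKM. Of these 3 genes, 1 was at least 2-fold higher and 1 lower with kanamycin in the mutant line, and 0 were with it in the control line. Between the lines, 1 was higher and 1 lower in the mutant, with kanamycin and also without it. Over the 9761 entries, the corresponding shares lay between 23.9% and 35.7% higher and between 27.1% and 37.2% lower. Nothing particular to these 3 genes is read from their counts.

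STN7, the LHCII kinase, had 45.5 FPKM in wbc19 mutant + kanamycin and 41.9 FPKM in wbc19 mutant, against 34.0 FPKM in control + kanamycin and 12.9 FPKM in control. TAP38, the phosphatase that reverses its action, had 81.8 FPKM in wbc19 mutant + kanamycin and 26.6 FPKM in wbc19 mutant, against 25.7 FPKM in control + kanamycin and 67.2 FPKM in control. Of this pair, 1 was at least 2-fold higher in each of the 4 comparisons, and 1 was lower with kanamycin in the control line and between the lines without kanamycin. Between 57.4% and 62.8% of the 9761 entries were at least 2-fold apart in either direction, so nothing particular to this pair is read from its counts. The kinase was lowest in control, while the phosphatase was low in wbc19 mutant and in control + kanamycin.

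Among regulators of LHCB transcription, GLK1, an activator of photosynthesis genes, had 32.4 FPKM in wbc19 mutant + kanamycin and 4.49 FPKM in wbc19 mutant, against 3.96 FPKM in control + kanamycin and 3.78 FPKM in control. GLK2, its partner, had 47.1 FPKM in wbc19 mutant + kanamycin and 54.8 FPKM in wbc19 mutant, against 41.7 FPKM in control + kanamycin and 18.5 FPKM in control. GLK1 was high in 1 library only, and GLK2 was low in control only. The clock factor CCA1 was between 6.44 and 17.3 FPKM, LHY between 19.1 and 26.1 FPKM, and HY5, a light signalling factor, had 7.56 FPKM in wbc19 mutant + kanamycin and 8.91 FPKM in control + kanamycin and was listed at 0 in both libraries without kanamycin. Of these 5 factors, 3 were at least 2-fold higher with kanamycin in the mutant line and 2 in the control line, 2 were higher in the mutant with kanamycin and 1 without it, and 0 were at least 2-fold lower in any of these comparisons. Of the 9761 entries, 35.7% were higher with kanamycin in the mutant line and 26.6% in the control line, and 29% were higher in the mutant with kanamycin and 23.9% without it. HY5 is among those counted for kanamycin in both lines, although it averaged under the limit of 5 FPKM set for the 9761 entries and passed the lower limit of 1 FPKM for lists through the kanamycin libraries alone. The values of HY5 and CCA1, and those of GLK1 outside wbc19 mutant + kanamycin, are low, so that few reads stand behind each.

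Over the 4 libraries, the profile nearest to the LHCB1 sum among 1532 entries with a mean of at least 50 FPKM was that of AT5G28450, by Euclidean distance of centred log2 values, at 0.08. It was followed by ACP4, an acyl carrier protein, by mtLPD1, by PSBA, which encodes the D1 protein of photosystem II in the chloroplast genome, and by emb2171. For the LHCB2 sum the nearest was LHCB6 at 0.16, followed by PGR5-LIKE A, AT2G18110, PSAN, a subunit of photosystem I, and AT1G23740. PSAN had 1428 FPKM in wbc19 mutant + kanamycin and 865 FPKM in wbc19 mutant, against 1123 FPKM in control + kanamycin and 853 FPKM in control. A likeness over 4 libraries is a description only.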

How the data were processed

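Poly(A) RNA of 1 library per condition was fragmented, ligated to adapters, amplified and read from 1 end. The authors clipped the reads to 36 bases, aligned them to TAIR10 with TopHat2 2.0.5 with up to 2 mismatches, assembled them with Cufflinks 2.0.2 and computed deposited FPKM per gene with Cuffdiff 1.3.0. Table headers call the values rpkm. The authors' fold changes, p-values and q-values were not used.

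Of 33624 rows, 78 whose copies differ and 7 without a value were left out, and 27 values of 0 written as 0.01 were set to 0. Members, gene lists and tests were chosen with earlier results of these data known. Named are the 8 genes, members of the lists, WBC19 and the 5 nearest profiles for each family. Reads were estimated from the step between low FPKM values of single-exon genes, after subtracting 100 bases from the length, an offset chosen after seeing the data from 7 tried. Between 75.0% and 89.1% of such values lay within 0.2 of a whole number. The implied totals are below the mapped reads that the study lists, so read numbers and intervals are approximate. Sequences and gene structures are from RefSeq, TAIR10.1, in which 99.996% of 27769 genes overlapped the deposited loci and 52.1% shared a start or an end with them. Some RefSeq transcripts of the 8 genes reach beyond the deposited loci outside the coding sequence, and windows there were counted as well. Protein sequences were not used here. Alternatives were pseudocounts of 0.1 and 10, upper-quartile or median-ratio scaling, the assembled entry in the sum and other limits on mean FPKM. The counting was tested on simulated data. Python 3.11.15, numpy 2.4.6, scipy 1.17.1, pandas 2.3.3, matplotlib 3.10.9 and Biopython 1.88 were used.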

Additional observations from a re-analysis of the deposited data

Results flagged for a closer look

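Kanamycin differences of opposite sign in the 2 lines were found for 3 genes, given here as log2 differences of FPKM + 1 between libraries with and without kanamycin. They were 0.50 in the wbc19 mutant line and -0.066 in the control line for LHCB1.2, -0.066 in the wbc19 mutant line and 0.75 in the control line for LHCB1.5, and 0.69 in the wbc19 mutant line against -0.16 in the control line for LHCB2.2. The value below 0 of each gene had a counting interval that held 0. These are values as deposited: under upper-quartile scaling 5 genes had opposite signs, LHCB1.5 no longer among them and LHCB1.1, LHCB1.3 and LHCB2.1 added, and under median-ratio scaling 3 did, with LHCB1.3 in place of LHCB1.5. The assembled entry of LHCB1.1 differed by 2.99 for kanamycin in the control line, and was listed at 0 FPKM in wbc19 mutant + kanamycin.

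The difference between lines had opposite signs with and without kanamycin for 4 genes and for the LHCB2 sum. For LHCB1.2 it was 0.32 with kanamycin and -0.24 without it, for LHCB1.5 -0.0023 with kanamycin and 0.82 without it, for LHCB2.1 0.46 with kanamycin and -0.13 without it, and for LHCB2.2 0.81 with kanamycin and -0.047 without it. The values below 0 of LHCB1.5, LHCB2.1 and LHCB2.2 had counting intervals that held 0, and LHCB1.5 had the same sign in both media under either scaling, while LHCB2.3 gained opposite signs under upper-quartile scaling. For the LHCB2 sum it was 0.50 with kanamycin and -0.14 without it, with neither interval holding 0. The values of both paragraphs come from the same 4 libraries. With 1 library per condition, the difference between these differences was not tested.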

How the results depend on the processing

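No paired analysis was possible because each condition has 1 library and no test was run. The values below are log2 differences of FPKM + 1. Upper-quartile scaling turned the kanamycin difference of the control line to -0.054 for the LHCB1 sum and -0.13 for the LHCB2 sum, and moved that of the mutant line to 0.38 for LHCB1 and 1.05 for LHCB2. It moved the difference between lines with kanamycin to 0.58 for LHCB1 and 0.80 for LHCB2, and without kanamycin to 0.14 for LHCB1 and -0.38 for LHCB2. Median-ratio scaling gave 0.28 for LHCB1 and 0.95 for LHCB2 for kanamycin in the mutant line, 0.19 for LHCB1 for kanamycin in the control line, and 0.45 for LHCB1 and 0.67 for LHCB2 between lines with kanamycin. With the assembled entry added, the LHCB1 sum differed by 0.36 for kanamycin in the control line and by 0.14 between lines with kanamycin. Under upper-quartile scaling, the genes at least 2-fold apart numbered 2 for kanamycin in the mutant line, 0 in the control line and 1 between lines with kanamycin.

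Single genes were rescaled after seeing the data. For kanamycin in the control line, upper-quartile scaling reversed LHCB1.1 to -0.065, LHCB1.3 to -0.28 and LHCB2.1 to -0.12, and median-ratio scaling LHCB1.3 to -0.037. Between lines with kanamycin, LHCB1.5 went to 0.31 by upper quartile and 0.18 by median ratio, and LHCB2.3 to 0.10 by upper quartile. For kanamycin in the mutant line, LHCB1.5 went to 0.17 by upper quartile and 0.069 by median ratio. Pseudocounts of 0.1 and 10 left all 32 single-gene values within their counting intervals. By construction, each scaling shifts all abundant genes of a comparison by nearly the same amount. Counting error limits LHCB2.3 most, with 91 estimated reads in wbc19 mutant.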
